A study of Homo sapiens with 11 samples.

Results

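The genes described here are 9 components of endoplasmic reticulum (ER)-associated degradation, the route by which misfolded proteins leave the ER for the proteasome. They were taken by name, and no measured value enters that rule: SYVN1, SEL1L, HERPUD1, DERL1, DERL2, DERL3, EDEM1, EDEM2 and OS9, which are 9 of the 38021 genes in the table. The choice itself was made with earlier results of these data known. Their mRNA was measured by RNA sequencing in HEK293T, a widely used line of human embryonic kidney origin that carries the SV40 large T antigen. All cells were labelled wild type and were treated for 6 h. They received 0.1% DMSO as vehicle, 500 nM thapsigargin (Tg), 10 µM AA147, or AA132 at 0.1, 0.3, 1, 3, 6, 10, 15 or 30 µM. Tg empties the ER calcium store by blocking the SERCA pump and is a standard inducer of ER stress, and AA147 and AA132 are known as small molecules that engage the unfolded protein response. Each of the 11 conditions has 3 numbered libraries, 33 in all. Nothing in the labels says that these came from separate cultures, so the p-values measure the spread between these libraries, which may be technical. The data come from 1 transformed line at 1 time.

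In ER-associated degradation, a misfolded glycoprotein is first recognised in the lumen. Mannosidase-like proteins of the EDEM family trim its sugars and lectins such as OS9 bind the trimmed form, which SEL1L receives on the lumenal side of the membrane. The ubiquitin ligase SYVN1 (also called HRD1), its partner SEL1L and the derlins form the channel through which the protein is moved out, and HERPUD1 helps to assemble that complex. The ATPase VCP then pulls the ubiquitinated protein to the proteasome. Many of these genes are known targets of the 3 arms of the unfolded protein response.

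HERPUD1 had the largest fold change of the 9 genes under Tg, and its promoter holds 2 of the 4 stress response motifs that were searched on both strands. RefSeq promoters (GRCh38.p14, 250 bases before to 50 after the start) were matched for 7 of the 9 genes, all but DERL1 and DERL3. HERPUD1, on the plus strand at chr16:56931892-56932191, is shown with its motifs in capitals, and EDEM1, on the plus strand at chr3:5187457-5187756, is shown because it rose under Tg and passed the test at no dose of AA132.
HERPUD1: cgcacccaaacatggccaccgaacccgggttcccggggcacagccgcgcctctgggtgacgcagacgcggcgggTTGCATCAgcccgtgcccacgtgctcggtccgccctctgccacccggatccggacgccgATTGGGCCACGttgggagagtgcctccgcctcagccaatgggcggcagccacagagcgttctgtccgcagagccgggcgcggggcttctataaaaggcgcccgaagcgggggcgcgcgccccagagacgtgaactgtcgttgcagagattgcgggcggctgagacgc
EDEM1: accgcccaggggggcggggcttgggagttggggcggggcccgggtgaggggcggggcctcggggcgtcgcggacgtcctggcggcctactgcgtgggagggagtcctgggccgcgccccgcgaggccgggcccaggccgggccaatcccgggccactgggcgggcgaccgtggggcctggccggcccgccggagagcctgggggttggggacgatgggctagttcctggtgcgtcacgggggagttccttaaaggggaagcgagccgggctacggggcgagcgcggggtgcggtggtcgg
In HERPUD1 the first run of capitals, TTGCATCA, is the element bound by ATF4-containing dimers, from -176 to -169 relative to the start. The second, ATTGGGCCACG, is the ER stress response element II (ATTGG, 1 base of any kind, CCACG), from -117 to -107. Among 35116 promoters of the same length, 0.0541% held the ER stress response element II and 0.866% held the ATF4 element. None of the 7 promoters held the ER stress response element (CCAAT, 9 bases of any kind, CCACG), which 0.0769% of all promoters held, or the unfolded protein response element TGACGTGG, which 0.729% held. The chaperone gene HSPA5, the usual reference for the response, holds the first of these as CCAATCGGCGGCCTCCACG, from -66 to -48. A match describes these letters only, and no match says only that they are not in this window.

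Depth was even, with 32.3 to 37.96 M counts per library, and all 9 genes passed the filter on low counts among 17793 genes tested. The HEK293 markers NEFM, NEFL, INA and VIM were detected in every library at 16.2 CPM (counts scaled to library size) or more, and PAX2 at 0.407 to 1.53 CPM. Markers of kidney tubule (UMOD, SLC34A1, AQP2), blood (PTPRC), liver (ALB), keratinocytes (KRT5) and endothelium (PECAM1) reached at most 0.159 CPM, while COL1A1, listed for fibroblasts, was at 19.7 to 49.8 CPM. In bulk RNA, fewer cells of a type and less RNA per cell cannot be told apart. Vehicle library 1 stood apart: 203 of 9786 genes differed over 2-fold from the mean of the other 2 vehicle libraries, against 0 to 18 genes in each of the other 32 libraries. A pair of AA132 libraries went against their labels in HSPA5: library 1 at 1 µM was at 1660 CPM, nearer to 3 µM libraries 1 and 2 (1921 and 1969) than to its fellows (1028 and 1093), and library 3 at 3 µM was at 1042. Whether these 2 libraries were exchanged was not tested, and what the 1 and 3 µM values mean depends on it. HSPA5 rose from 960 ± 72.6 CPM in vehicle to 11020 ± 276 under Tg and to 2636 ± 183 with 30 µM AA132 (SD, n = 3 each).

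Tg raised all 9 genes, by 1.32-fold (OS9) to 17.4-fold (HERPUD1), and for each of them the Tg libraries lay above all vehicle libraries. The share of all genes with groups apart in this way was not counted, here or in the later comparisons. Of all genes tested, 16.2% were called higher under Tg and 15.0% lower, a gene being called at an adjusted p under 0.05 in the quasi-likelihood F-test of edgeR. The 9 genes had a median log2 fold change of 1.51, and all genes of 0.00489. With AA132 fewer of them were called: 2 genes higher at 6 and at 10 µM, 4 at 15 µM and 5 at 30 µM. At these doses 0.866%, 1.03%, 1.97% and 3.86% of all genes were called higher. AA147 called none. Every comparison with vehicle uses the same 3 vehicle libraries, so these counts are not independent of each other.

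**Figure D1:**
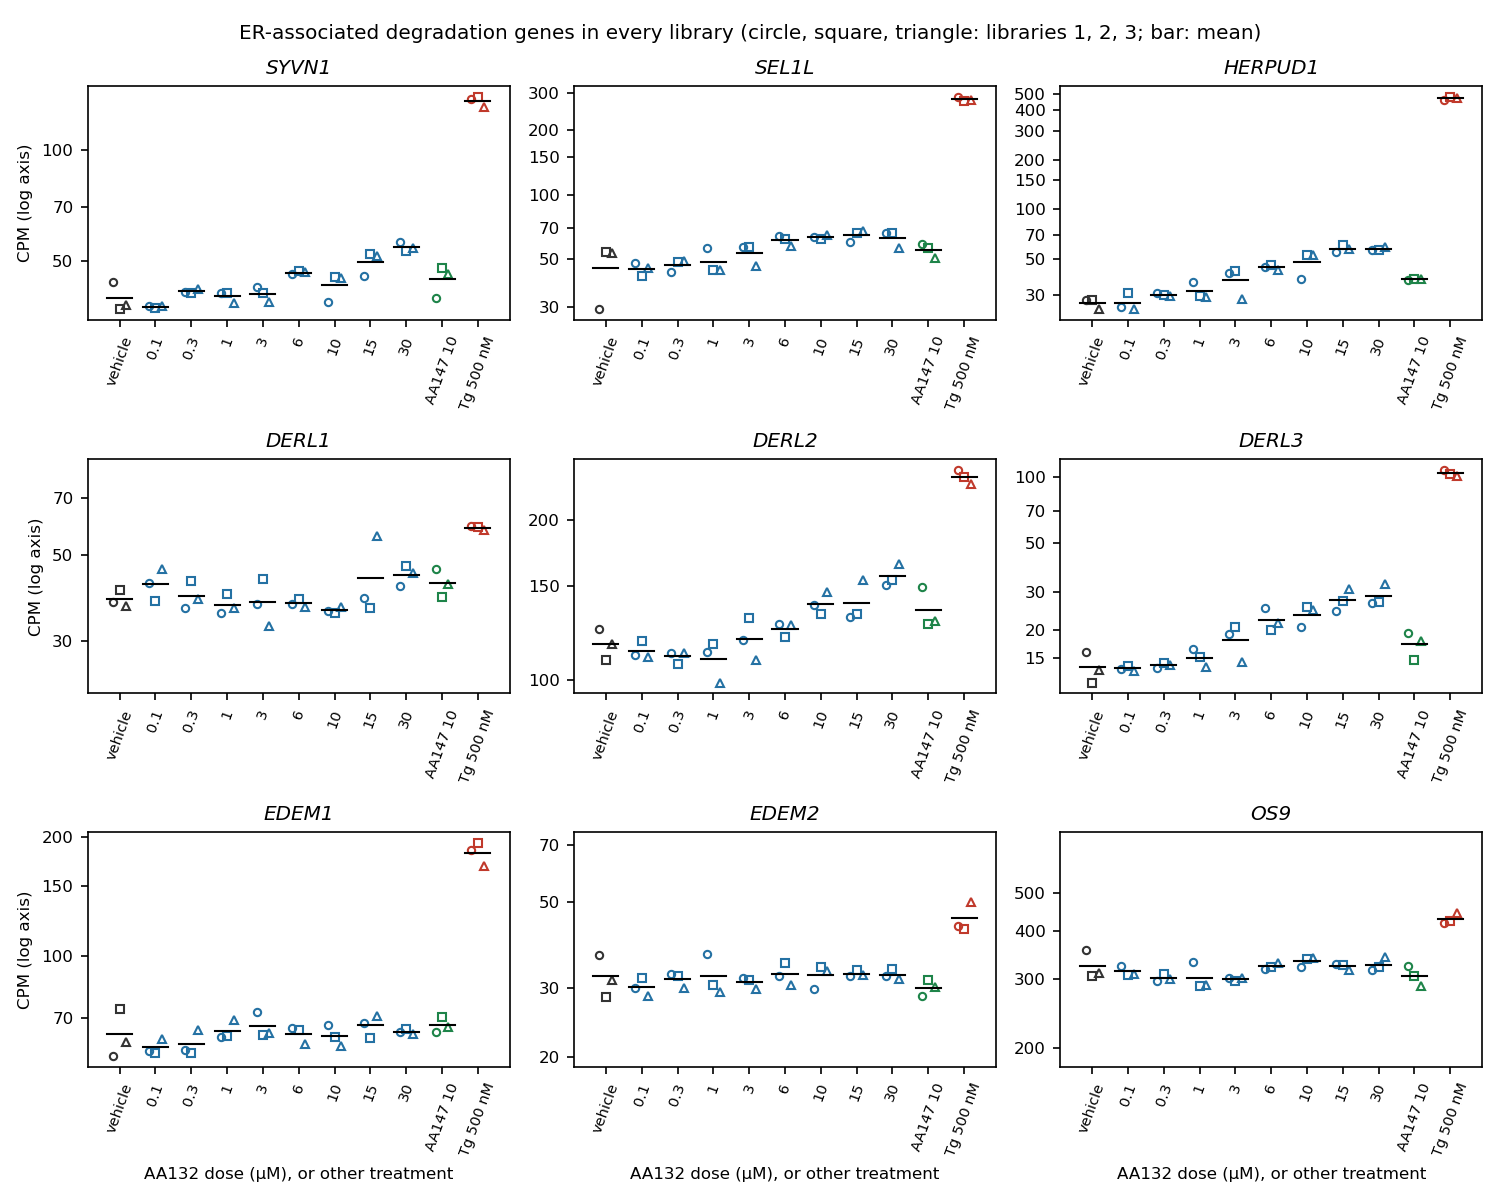
Level of each of the 9 genes in all 33 libraries, in CPM on a log axis, by condition; each symbol is 1 library (circle, square and triangle for libraries 1, 2 and 3) and each bar a condition mean. The Tg points lie above the vehicle points in all 9 panels, whereas in the panels of EDEM1, EDEM2 and OS9 the AA132 and vehicle points overlap at 30 µM.

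SYVN1 is the membrane ubiquitin ligase at the centre of the complex (chromosome 11, 65121780 to 65134532, minus strand, 16 exons in GENCODE v44 on GRCh38). Its vehicle libraries 1 to 3 were at 43.98, 36.94 and 38.04 CPM and its Tg libraries at 137.9, 139.9 and 131.5 CPM. With 30 µM AA132 they were at 56.2, 53.2 and 54.2 CPM. Both treated groups lay wholly above vehicle, Tg by far the farther. The rise under Tg was 3.44-fold (log2 1.78, SE 0.07, edgeR adjusted p = 4.47e-19). At 30 µM AA132 it was 1.38-fold (log2 0.46, SE 0.07, adjusted p = 0.000107), and at 15 µM 1.26-fold (log2 0.33, adjusted p = 0.00916). The 15 µM call was lost without 15 µM library 2 (adjusted p = 0.0647) or library 3 (0.0579). At 6 µM SYVN1 reached the threshold only when vehicle library 1 was left out (adjusted p = 0.142 with it and 0.0156 without).

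SEL1L, the adaptor that holds the ligase and receives clients from lumenal lectins, was the member that differed most between vehicle libraries (chromosome 14, 81471547 to 81533853, minus strand, 21 exons). Its vehicle libraries were at 29.2, 54.3 and 53.6 CPM, its Tg libraries at 287.4, 273.3 and 276.1 CPM, and its 30 µM AA132 libraries at 66.6, 66.6 and 56.5 CPM. Vehicle library 1 was low beside the other 2, while Tg lay far above all of them. Under Tg SEL1L rose 6.10-fold (log2 2.61, SE 0.14, adjusted p = 1.1e-16), and without vehicle library 1 the log2 fold change was 2.36 (adjusted p = 1.26e-19). Its calls with AA132 did not hold in the same way. At 30 µM the log2 fold change was 0.47 (SE 0.13, adjusted p = 0.0253) with all libraries and 0.23 (adjusted p = 0.118) without vehicle library 1. At 15 µM it was 0.51 (adjusted p = 0.0277) and 0.26 (adjusted p = 0.117). The call at 30 µM was also lost without 30 µM library 1 (adjusted p = 0.103) or 2 (0.0967), and that at 15 µM without 15 µM library 2 (0.0909) or 3 (0.108). At 10 µM SEL1L missed the threshold (log2 0.47, adjusted p = 0.061) and passed it without vehicle library 2 (0.0152) or 3 (0.023). At 6 µM it missed it too (log2 0.43, adjusted p = 0.126) and passed it without vehicle library 2 (0.0292). With vehicle library 1 left out instead, the log2 fold change was 0.23 at 10 µM (adjusted p = 0.173) and 0.19 at 6 µM (adjusted p = 0.328).

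Transcript length moved with the difference of that library. Over 9173 genes with a length, the log2 difference of vehicle library 1 from the mean of the other 2 had a Spearman's rho of -0.658 with length, across genes, which are not independent replicates. Its median was 0.276 for 2037 genes under 2 kb and -0.398 for 1859 genes over 6 kb. In the 30 libraries of other conditions the same medians ran from -0.0667 to 0.0916 and from -0.157 to 0.0981. SEL1L has a canonical transcript of 7919 bases, the longest of the 9, and its difference was -0.885, below that of all but 3.19% of genes. EDEM1, with 6113 bases, was next lowest at -0.257, and the other 7 lay between -0.0385 (DERL1) and 0.37 (DERL3). The part of length in the SEL1L values was not tested.

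**Figure D2:**
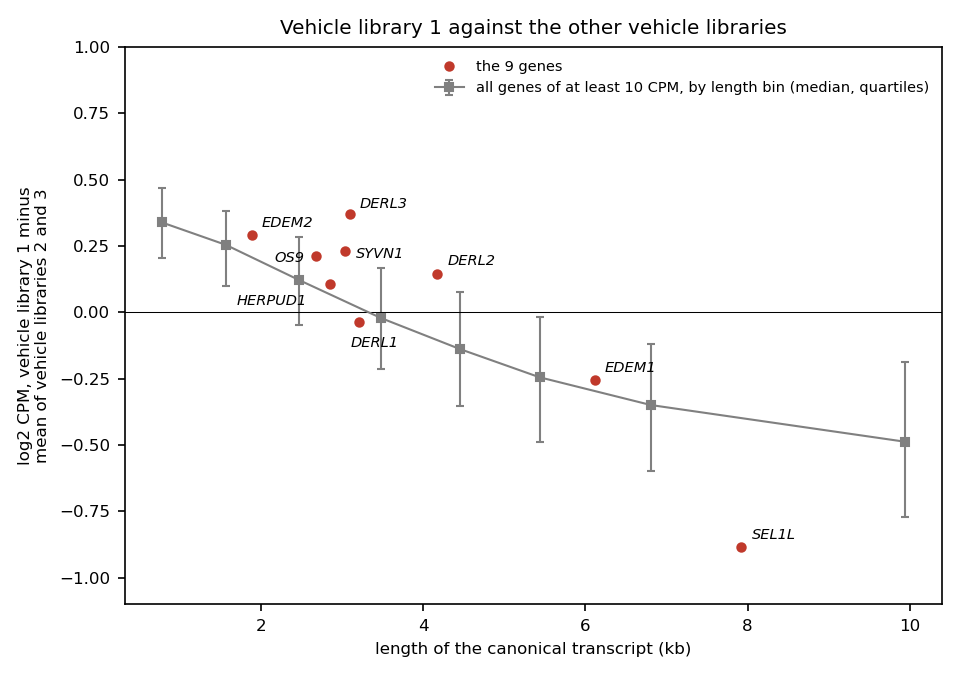
Log2 difference of vehicle library 1 from the mean of vehicle libraries 2 and 3 in log2 CPM (vertical axis) against canonical transcript length in kb (horizontal axis); grey squares are medians of genes in bins of length with bars to the quartiles, and red points are the 9 genes. The bin medians go from 0.339 for the shortest transcripts to -0.488 for the longest, and SEL1L lies at -0.885.

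HERPUD1, an ER membrane protein with a ubiquitin-like domain that recruits and stabilises the ligase complex, responded most to Tg (chromosome 16, 56932142 to 56944864, plus strand, 8 exons). In vehicle it was at 28.3, 28.1 and 24.7 CPM and under Tg at 460.6, 481.4 and 471.8 CPM. With AA132 it was at 44.7, 45.9 and 42.7 CPM at 6 µM, and at 56.3, 56.7 and 59.2 CPM at 30 µM. All of these groups lay apart from vehicle, and the 6 and 30 µM libraries did not overlap each other. HERPUD1 rose 17.4-fold under Tg (log2 4.12, SE 0.12, adjusted p = 1.61e-22), and its call under Tg held whichever single library was left out. With AA132 it rose 1.64-fold at 6 µM (adjusted p = 0.000363), 1.77-fold at 10 µM (4.21e-05), 2.13-fold at 15 µM (1.46e-07) and 2.12-fold at 30 µM (9.2e-08). The level thus stood at 57.6 ± 2.95 CPM at 15 µM and 57.4 ± 1.56 CPM at 30 µM (SD, n = 3). At 3 µM the libraries were at 41.0, 42.4 and 28.4 CPM, with library 3 close to vehicle. The rise there was 1.38-fold and was not called (adjusted p = 0.105), and without library 3, one of the pair that went against their labels, it was (log2 0.63, adjusted p = 0.00184).

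Of the 3 derlins, the rhomboid-like pseudoproteases of the retrotranslocation channel, DERL3 changed most and DERL1 least. DERL3 lies on chromosome 22 (23834503 to 23839128, minus strand, 7 exons). Vehicle libraries of DERL3 were at 16.0, 11.6 and 13.3 CPM, its Tg libraries at 107.5, 102.8 and 101.1 CPM and its 30 µM AA132 libraries at 26.8, 26.8 and 32.4 CPM. Neither treated group overlapped vehicle, and Tg stood far above 30 µM AA132. DERL3 rose 7.63-fold under Tg (log2 2.93, SE 0.13, adjusted p = 1.47e-18). It rose 1.64-fold at 6 µM AA132 (adjusted p = 0.0012), 1.73-fold at 10 µM (0.000235), 2.02-fold at 15 µM (3.05e-06) and 2.10-fold at 30 µM (6.66e-07). In the edgeR fit reported, with all libraries, DERL3 and HERPUD1 were the only members called at 6 and 10 µM. The lowest dose with any member called in that fit was 6 µM. At 3 µM DESeq2 called HERPUD1, and edgeR without the filter on low counts called HERPUD1 and DERL3.

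DERL2 was the most abundant derlin (chromosome 17, 5471254 to 5486811, minus strand, 7 exons). Vehicle libraries were at 124.8, 108.9 and 116.7 CPM, its Tg libraries at 248.5, 240.8 and 234.2 CPM and its 30 µM AA132 libraries at 151.1, 154.5 and 165.2 CPM. These groups lay apart, with 30 µM AA132 between vehicle and Tg. DERL2 rose 2.07-fold under Tg (log2 1.05, SE 0.08, adjusted p = 3.79e-13) and 1.34-fold at 30 µM AA132 (log2 0.43, SE 0.07, adjusted p = 0.00036). At 15 and 10 µM it missed the threshold (log2 0.26 and 0.25, adjusted p = 0.0559 and 0.0843) and passed it without vehicle library 1 (0.0248 and 0.0274).

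DERL1 on chromosome 8 (123013170 to 123042302, minus strand, 8 exons) was called under Tg alone among the comparisons with vehicle. Its vehicle libraries were at 37.7, 40.6 and 36.9 CPM, its Tg libraries at 59.3, 58.9 and 57.8 CPM and its 30 µM AA132 libraries at 41.7, 46.7 and 44.9 CPM. The 30 µM libraries lay just above the vehicle libraries, with no overlap. Under Tg DERL1 rose 1.53-fold (log2 0.61, SE 0.11, adjusted p = 3.59e-05). At 30 µM AA132 the log2 fold change was 0.21 (95% interval -0.01 to 0.43, adjusted p = 0.275). At 15 µM 1 library was at 55.9 CPM and the other 2 at 38.7 and 36.6 CPM.

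The lumenal recognition genes EDEM1, EDEM2 and OS9 all rose under Tg, and none was called at any AA132 dose. EDEM1 is on chromosome 3 (5187646 to 5219958, plus strand, 12 exons). Its vehicle libraries were at 56.2, 73.9 and 61.0 CPM, its Tg libraries at 184.6, 192.7 and 168.3 CPM and its 30 µM AA132 libraries at 64.5, 65.7 and 63.6 CPM. The 30 µM libraries lay inside the vehicle range. EDEM1 rose 2.85-fold under Tg (log2 1.51, SE 0.08, adjusted p = 2.21e-16). At 30 µM AA132 its log2 fold change was 0.02, with a 95% interval from -0.14 to 0.18 (adjusted p = 0.924).

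EDEM2 is on chromosome 20 (35115364 to 35147336, minus strand, 11 exons). EDEM2 vehicle libraries were at 36.6, 28.4 and 31.6 CPM, its Tg libraries at 43.5, 42.7 and 50.2 CPM and its 30 µM AA132 libraries at 32.3, 33.6 and 31.7 CPM. Tg lay above vehicle, while 30 µM AA132 lay within it. The rise under Tg was 1.41-fold (log2 0.50, SE 0.09, adjusted p = 2.59e-05). With 30 µM AA132 it had a log2 fold change of 0.01, with a 95% interval from -0.16 to 0.19 (adjusted p = 0.954).

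OS9, the lectin that delivers trimmed glycoproteins to SEL1L, is on chromosome 12 (57693841 to 57728342, plus strand, 15 exons). OS9 was at 357.0, 305.3 and 310.7 CPM in vehicle, at 417.2, 423.9 and 444.9 CPM under Tg and at 316.8, 322.4 and 341.9 CPM with 30 µM AA132. Here too Tg lay above vehicle and 30 µM AA132 within it. The rise under Tg was the smallest of the 9, 1.32-fold (log2 0.40, SE 0.06, adjusted p = 2.35e-06). With 30 µM AA132 its log2 fold change was 0.01, with a 95% interval from -0.11 to 0.13 (adjusted p = 0.943).

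Calls at AA132 doses changed with the libraries in the fit. When only vehicle and 30 µM AA132 entered the fit, HERPUD1 and DERL3 were still called, while SYVN1 (adjusted p = 0.113), SEL1L (0.448) and DERL2 (0.0922) were not. At 10 µM the same restriction ended the calls of HERPUD1 (0.121) and DERL3 (0.171), at 6 µM that of DERL3 (0.204), and at 15 µM those of SYVN1 (0.476) and SEL1L (0.569).

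At 0.1, 0.3 and 1 µM AA132, edgeR called 0 of the 9 genes and 0% of all genes. DESeq2 called 0 of the 9 too, and 0 of the 9 had an unadjusted p under 0.05 at any of these doses, against 4.47%, 5.51% and 5.94% of all genes. Without library 1 at 1 µM, 0 were called there too. HERPUD1 at 1 µM was at 36.2, 29.9 and 29.2 CPM, and DERL3 at 16.4, 15.2 and 13.6 CPM, against vehicle maxima of 28.3 and 16.0 CPM. At 3 µM edgeR again called 0 of the 9 genes, with 0.118% of all genes called. At that dose 2 of the 9 and 9.19% of all genes had an unadjusted p under 0.05, and DESeq2 called HERPUD1 (adjusted p = 0.019).

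The dose series was also described by a slope on log10 dose over the 24 AA132 libraries, which leaves vehicle out. Of the 9 genes 5 had a rising slope, and 9.70% of all genes did. The slope was 0.49 log2 units per 10-fold dose for DERL3 (SE 0.04, edgeR adjusted p = 1.24e-10) and 0.47 for HERPUD1 (SE 0.04, 1.8e-10). For SEL1L it was 0.24 (SE 0.03, 1.62e-07), and this value does not rest on vehicle library 1. It compares AA132 doses with each other and does not measure a rise over vehicle. Without vehicle library 1, SEL1L had log2 fold changes of -0.26, -0.20 and -0.15 at 0.1, 0.3 and 1 µM. At 6, 10, 15 and 30 µM they were 0.19, 0.23, 0.26 and 0.23, and none of these values was called. DERL2 had a slope of 0.19 (3.58e-06) and SYVN1 of 0.18 (5.86e-06). These 5 are the 3 ligase complex genes together with DERL2 and DERL3. EDEM1 (0.06, adjusted p = 0.064) and OS9 (0.04, 0.0766) were near the threshold. EDEM1 passed it without any one of 4 libraries, library 3 at 0.3, 1 or 10 µM (0.0491, 0.0415 and 0.0402) or library 1 at 3 µM (0.0481). OS9 passed it without library 1 at 0.1 µM (0.0346). EDEM2 (0.04, 0.271) and DERL1 (0.02, 0.77) were not called. Without library 1 at 1 µM, or without library 3 at 3 µM, 5 genes were called as well.

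**Figure D3:**
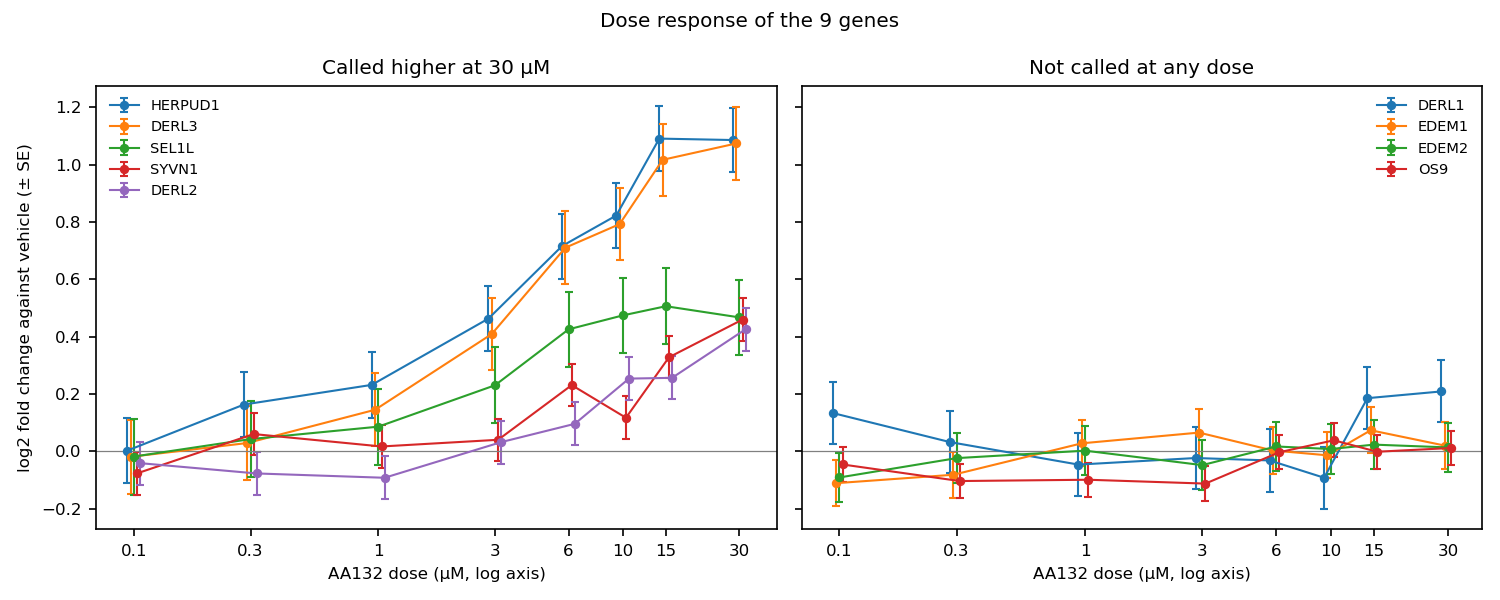
Log2 fold change against vehicle of each gene at the 8 AA132 doses (log dose axis in µM), with bars for the SE. HERPUD1 and DERL3 pass 0.7 at 6 µM and 1.0 at 15 µM, while EDEM1, EDEM2 and OS9 lie near 0 at 30 µM.

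Between 6 and 30 µM AA132, DERL2 was the 1 member called (log2 0.33, SE 0.07, edgeR adjusted p = 0.0111), and 1.58% of all genes were called higher. That call was lost without 6 µM library 2 (adjusted p = 0.0603) or 30 µM library 3 (0.0725). HERPUD1 (log2 0.37, adjusted p = 0.0544), DERL3 (0.36, 0.0944), SYVN1 (0.23, 0.0772) and DERL1 (0.24, 0.239) had groups that did not overlap and missed the threshold. HERPUD1 was also called with DESeq2, without the filter on low counts, with a replicate block and with only these 2 groups in the fit. SYVN1 was called with DESeq2, DERL3 without the filter, and both, as well as DERL1, with only these groups. SEL1L had reached 61.4 ± 3.55 CPM at 6 µM and was at 63.2 ± 5.81 CPM at 30 µM, a log2 difference of 0.04 (95% interval -0.22 to 0.31).

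Against Tg directly, 30 µM AA132 left all 9 genes lower, where 15.5% of all genes were called lower. The log2 differences ran from -3.04 for HERPUD1 (edgeR adjusted p = 1.86e-19) and -2.14 for SEL1L (2.54e-14) to -0.40 for DERL1 (0.00422) and -0.39 for OS9 (4.52e-06). As a share of the Tg log2 fold change, the value at 30 µM AA132 was 40.8% for DERL2, 36.6% for DERL3 and 34.3% for DERL1, the last from a change that was not called. It was 26.3% for HERPUD1, 25.8% for SYVN1 and 17.9% for SEL1L. For OS9, EDEM2 and EDEM1 it was 2.97%, 2.81% and 1.35%. Several of these shares rest on vehicle library 1. Without it SEL1L was at 9.69%, OS9 at 18.8%, EDEM2 at 19.9% and EDEM1 at -4.36%, so that OS9 and EDEM2 came above SEL1L, and the other 5 lay between 27% (HERPUD1) and 44% (DERL2). The shares have the same vehicle libraries in both terms and are given as a description.

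**Figure D4:**
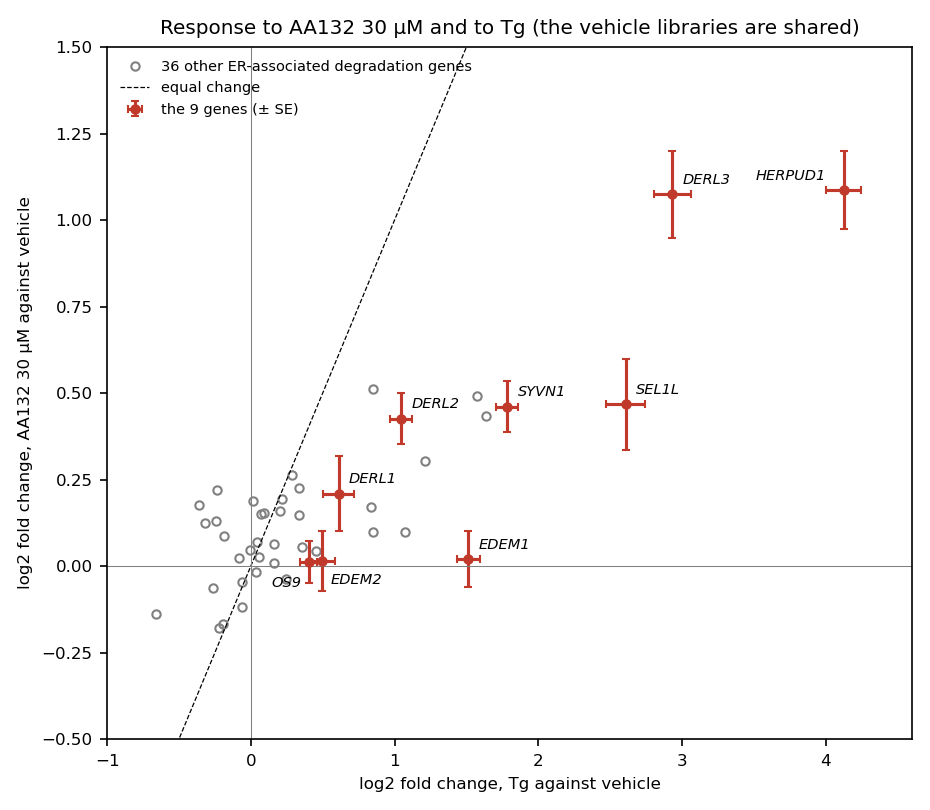
Log2 fold change at 30 µM AA132 (vertical axis) against that under Tg (horizontal axis) for the 9 genes (red, with SE bars) and 36 other genes of the pathway (grey); the dashed line marks equal change and both axes use the same vehicle libraries. EDEM1 lies at 1.51 under Tg and 0.02 with AA132, whereas DERL2 lies at 1.05 and 0.43.

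With AA147 at 10 µM, edgeR called 0 of the 9 genes, and 0.0225% of all genes were called. Of the 9, 5 had an unadjusted p under 0.05, against 6.81% of all genes, and DESeq2 called 1, HERPUD1 (adjusted p = 0.0311). HERPUD1 was at 37.2, 37.6 and 37.8 CPM, above all vehicle libraries (log2 0.47, 95% interval 0.24 to 0.70, edgeR adjusted p = 0.184). DERL2 was at 149.8, 127.4 and 129.2 CPM, also above vehicle (log2 0.21, interval 0.06 to 0.37, adjusted p = 0.541). The other 7 overlapped vehicle, with log2 fold changes from -0.10 (EDEM2) to 0.35 (DERL3). SEL1L was at 0.28 with all libraries and 0.04 without vehicle library 1.

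The compounds AA132 and AA147 can be compared at 10 µM, their 1 shared dose. EdgeR called 0 of the 9 genes different, where 0.0674% of all genes were called, and DESeq2 called 0. An unadjusted p under 0.05 was found for 4 of the 9 and for 8.01% of all genes. HERPUD1 was at 38.0, 52.9 and 52.7 CPM with AA132, each above the AA147 libraries, a log2 difference of 0.35 (95% interval 0.12 to 0.58, adjusted p = 0.332). AA132 library 1 stood below its fellows, and without it the difference was 0.49 (adjusted p = 0.0314). For DERL3 the difference was 0.44 (interval 0.19 to 0.70, adjusted p = 0.234), with groups apart at 20.7, 25.4 and 24.6 CPM against 19.5, 14.7 and 17.9 CPM. DERL1 was lower with AA132 by value (log2 -0.23, interval -0.45 to -0.01, adjusted p = 0.593). The intervals of SYVN1 (-0.20 to 0.10), DERL2 (-0.11 to 0.19) and EDEM1 (-0.26 to 0.07) span 0. A missed threshold does not show that the compounds act alike on these genes.

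The order of the 9 genes by level was itself changed by Tg. Per kilobase of canonical transcript, mean vehicle levels were 120.9 CPM per kb for OS9, 28.0 for DERL2, 17.1 for EDEM2, 13.0 for SYVN1, 12.0 for DERL1, 10.4 for EDEM1, 9.47 for HERPUD1, 5.77 for SEL1L and 4.40 for DERL3. On that scale the vehicle libraries overlap between SYVN1 and DERL1, DERL1 and EDEM1, EDEM1 and HERPUD1, and SEL1L and DERL3. Under Tg HERPUD1 stood at 165.2 CPM per kb, next to OS9 at 159.8. SEL1L at 35.2 and DERL3 at 33.6 then lay above EDEM1 (29.8), EDEM2 (24.1) and DERL1 (18.3). With 30 µM AA132 OS9 (121.9) and DERL2 (37.6) remained the top 2 and HERPUD1 (20.1) was next.

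Some members share genomic sequence with other genes, and the use of strand in counting is not given in the sources used here. DERL2 overlaps MIS12 on the opposite strand by 527 bases, and MIS12 rose under Tg by a log2 fold change of 1.31 and at 30 µM AA132 by 0.29 (adjusted p = 1.12e-14 and 0.0253). DERL1 overlaps TBC1D31 by 335 bases, which rose by 0.44 under Tg (2.62e-06). It also overlaps a long noncoding RNA on the opposite strand by 17582 bases. OS9 overlaps another long noncoding RNA by 27379 bases and AGAP2 by 4582 bases, both on the opposite strand. AGAP2 had a mean of 0.9 CPM over all libraries (log2 -0.28 under Tg, adjusted p = 0.534). SYVN1 overlaps MRPL49 by 5189 bases (log2 0.10 under Tg, adjusted p = 0.323; 0.28 at 30 µM AA132, 0.0119), and DERL3 overlaps SMARCB1 by 3507 bases (0.01 under Tg, 0.892; -0.22 at 30 µM AA132, 0.0171). On the same strand, where strand cannot separate reads, SYVN1 shares 398 bases with FAU (log2 -0.02 under Tg, 0.866), OS9 shares 2072 bases with AGAP2-AS1, and HERPUD1 shares 1065 and 699 bases with a pair of long noncoding RNAs. How far shared reads enter the values of these members was not tested.

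The wider pathway was less uniform than the 9 genes. Of 37 other genes of ER-associated degradation listed, 36 were measured and tested. Under Tg 14 rose and 5 fell, with a median log2 fold change of 0.08. These are 38.9% and 13.9% of the 36, beside 16.2% higher and 15.0% lower among all genes, so the share that fell was near the background. The largest rises were in VIMP (selenoprotein S), which anchors VCP at the membrane and went from 48.0 ± 5.63 to 148.8 ± 8.21 CPM (log2 1.63, edgeR adjusted p = 2.83e-17), and in SELK (selenoprotein K), another derlin partner (log2 1.57, 1.74e-14). TXNDC11, a thioredoxin-domain partner of the EDEM proteins, rose by 1.21 (6.81e-16), and UBE2J1, the ubiquitin-conjugating enzyme that works with SYVN1, by 1.07 (1.57e-14). The rhomboid protease RHBDD1 (0.85), the lectin ERLEC1 (0.85), the mannosidase-like EDEM3 (0.84) and the VCP recruiter UBXN4 (0.45) completed the 8 largest. MAN1B1, the mannosidase that makes the first cut on glycoproteins bound for disposal, fell by 0.66 (6.34e-08). TRIM13 (a membrane ligase), NPLOC4 (a VCP cofactor) and BCAP31 fell by 0.36, 0.32 and 0.24.

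By role, the rises under Tg were 2 of 3 lumenal lectins and mannosidases, 3 of 6 ligases, 1 of 3 conjugating enzymes, 4 of 12 membrane adaptors and 4 of 12 genes of extraction and cytosolic handling, and each of these roles also held 1 gene that fell. At 30 µM AA132, 6 of the 36 rose and none fell, 4 of them membrane adaptors, with a median of 0.10. That is 16.7% of the 36 higher, beside 3.86% higher and 3.19% lower among all genes. RHBDD1 (log2 0.51, edgeR adjusted p = 0.00612), SELK (0.49, 0.00191) and VIMP (0.43, 0.000679) led them. SELK and VIMP were also the 2 genes called at 6 and at 10 µM and, with FAF2 (0.30, 0.0357), the 3 called at 15 µM. These are 5.56%, 5.56% and 8.33% of the 36, beside 0.866%, 1.03% and 1.97% called higher among all genes. None of the 36 was called with AA147 or at 3 µM AA132 or below, where at most 0.118% of all genes were called. In the dose slope 9 of the 36 rose, led by SELK (0.24 per 10-fold dose, 4.78e-07), VIMP (0.21, 2.09e-08) and EDEM3 (0.10, 0.0082), and 2 fell, among them RAD23B (-0.06, 0.0247). These are 25% and 5.56% of the 36, beside 9.70% and 8.75% of all genes, so the share that fell was not above the background. Between 6 and 30 µM AA132 4 rose, among them the membrane ligase RNF5 (0.47, 0.00661), BCAP31 (0.28, 0.0362) and UBAC2 (0.28, 0.0225). That is 11.1% of the 36, beside 1.58% of all genes called higher. Against Tg, 30 µM AA132 left 11 of the 36 lower, led by VIMP (-1.20), SELK (-1.08) and UBE2J1 (-0.98), and 6 higher, led by TRIM13 (0.54), MAN1B1 (0.52) and UBE2G2 (0.46). These are 30.6% lower and 16.7% higher, beside 15.5% and 14.3% of all genes, so the share higher was near the background.

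The 31 proteasome subunits, which act at the end of the route, did not follow the 9 genes. Under Tg 1 rose, PSMA5 (log2 0.18, edgeR adjusted p = 0.0466), and 11 fell, the median being -0.06. Of all genes, 16.2% were called higher under Tg and 15.0% lower, so called falls were more common among the subunits and called rises rarer. Against the same vehicle libraries their median was as low at 0.1, 0.3 and 1 µM AA132 (-0.05, -0.09 and -0.08), where none was called. In 30 µM AA132 against Tg, which leaves vehicle out, 9 of the 31 were called higher and 2 lower (median 0.04). The part of the vehicle libraries in the falls was not tested. At 30 µM AA132 none rose and 1 fell (median -0.05). At that dose 3.86% of all genes were called higher and 3.19% lower, so these counts were near the background. By contrast all 10 ER chaperones in the list rose at each AA132 dose from 6 µM (median log2 0.70) to 30 µM (0.83) and under Tg (2.40), and all 10 integrated stress response targets rose under Tg (2.54) and at 30 µM AA132 (0.73). At 3 µM AA132, where edgeR called none of the 9 genes, 5 of the 10 chaperones and 0.101% of all genes were called higher. HERPUD1, not called, had a log2 fold change of 0.46 there, against 0.42 for HSP90B1, which was called. DESeq2 called HERPUD1 too, so these calls do not show that the chaperones rise at a lower dose. The 3 µM values also include library 3, which went against its label in HSPA5.

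**Figure D5:**
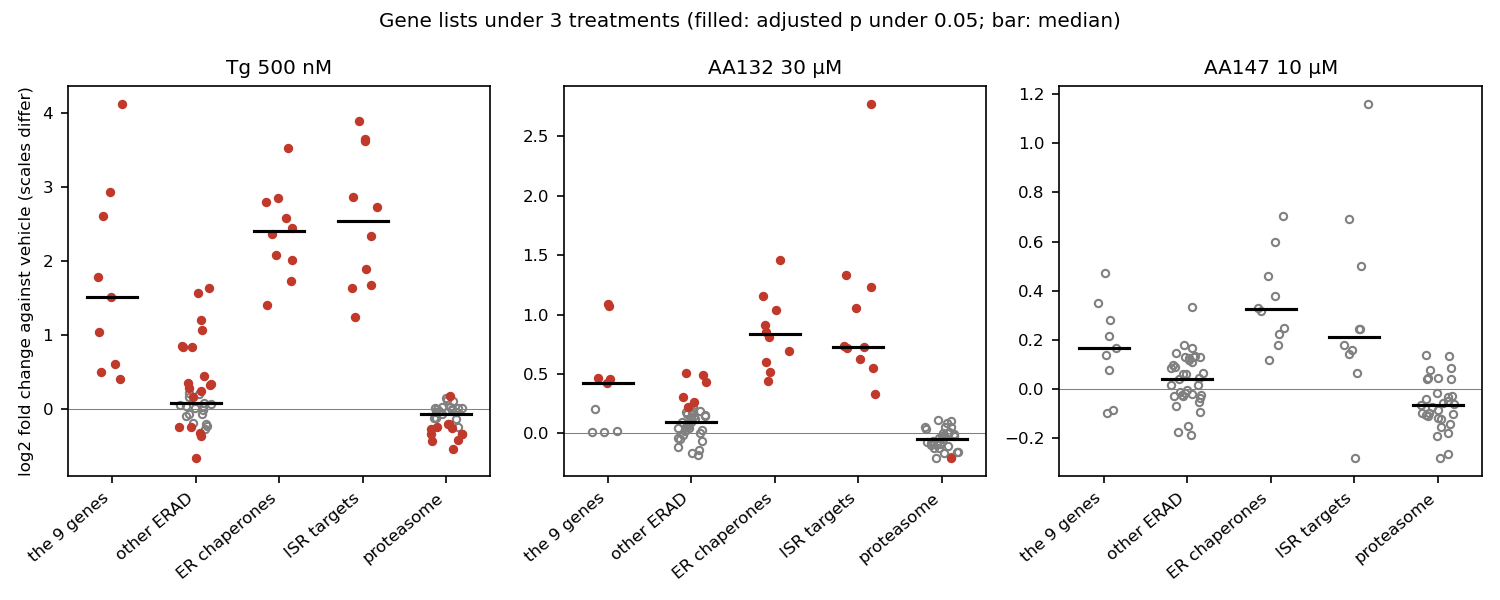
Log2 fold change against vehicle of each gene of the 5 lists under 3 treatments on separate scales, 1 point per gene, filled where called, with the list median as a bar. The medians of the 9 genes are 1.51 under Tg and 0.43 with AA132, and those of the proteasome subunits are -0.06 and -0.05.

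The genes whose condition means were most like the mean profile of the 9 depended on Tg. Over the 11 conditions, the highest Pearson correlations were those of TRIB3 (0.997), LOC100506548 (0.997), AARS (0.997), SLFN11 (0.996) and UFM1 (0.996), but 402 of 14002 genes exceeded 0.95, and the points share the contrast of Tg with the rest. Over the 10 conditions without Tg they were GCLM, PLEKHO2, HMOX1, ABHD3 and SLC3A2 (0.992 to 0.993), with 123 genes above 0.95. Without Tg the members themselves divided: HERPUD1 correlated with their mean profile at 0.992, DERL3 at 0.99, SEL1L at 0.955, SYVN1 at 0.934 and DERL2 at 0.921, while OS9 (0.593), EDEM2 (0.538), EDEM1 (0.533) and DERL1 (0.379) were lower. Each member is part of the mean it is set against, so these values are descriptive.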

How the data were processed

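RNA from 33 libraries was measured. The deposited table holds expected counts, made by the authors as total reads per gene on a linear scale, per the file headers. The submitters' processing notes name GRCh38.p7, and aligner, counter, annotation and strand setting are not given in the sources used here. The deposited floor of 0.009, which fills 43.5% of cells, was set to 0, expected counts were rounded, and entries that share a name were summed, except 28 names that had turned into dates. Totals were 32.3 to 37.96 M, so the precision is set by the spread between libraries.

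A single model over all libraries was fitted with edgeR 4.0.16 (R 4.3.3) and tested with its quasi-likelihood F-test, with TMM scaling and the edgeR filter, without a replicate block. P-values were adjusted by Benjamini-Hochberg over the 17793 genes tested. Standard errors come from the F statistic. CPM use TMM factors, and errors are SDs over 3 libraries. Alternatives were other scalings (relative log expression, library size only), no filter, a replicate block, DESeq2 1.42.0, a fit of only the groups compared, and leaving out each library. The model was tested on simulated data.

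Members and lists were chosen with earlier results of these data known. Named genes are the 9 members, HSPA5 and, of the other degradation genes, up to 8 called rises and 4 falls under Tg and up to 3 each way elsewhere. The 5 genes of closest profile had at least 1 CPM. Proteasome genes, overlapping genes and single libraries were named after their values were seen. The values of 1 gene that this rule names are not reported here.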

Additional observations from a re-analysis of the deposited data

How the results depend on the processing

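The 37 called values of the 9 genes kept their sign under relative log expression scaling, library-size scaling and DESeq2. All 9 genes stayed called under Tg and in 30 µM AA132 against Tg in every alternative, and 5 in the dose slope in every one that kept all libraries. Without a filter on low counts, 1 gene was called with AA147, 2 at 3 µM AA132, 2 in AA132 against AA147 and 3 in 30 against 6 µM AA132. DESeq2 called 1, 1 and 3 with AA147, at 3 µM and in 30 against 6 µM AA132, and 4 at 10 µM. With only the groups compared in the fit, 1 gene was called at 6 µM, 0 at 10 µM, 2 at 15 µM, 2 at 30 µM and 5 in 30 against 6 µM AA132. The cause was not tested. Leaving out 1 library gave 0 to 1 calls at 3 µM, 2 to 3 at 6 and 10 µM, 2 to 4 at 15 µM, 4 to 5 at 30 µM, 0 to 1 in AA132 against AA147, 0 to 1 in 30 against 6 µM and 5 to 6 in the slope. The replicate number as a block gave 2 calls in 30 against 6 µM and changed no other count. The numbers did not clearly pair libraries. For 15 of 33 libraries, of the 3 numbers their own had the highest mean correlation with libraries of other conditions. The mean correlation of deviations was 0.0129 for 165 same-number pairs and -0.00541 for 330 different-number pairs. Among all genes, the share called in either direction at 30 µM AA132 ran from 0.422% to 11.5% over the alternatives and under Tg from 17% to 32.2% (7.05% and 31.2% in the fit reported).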

Other observations

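In 3 AA132 conditions, 1 library differed from its fellows in several of the 9 genes in the same direction as the chaperone HSPA5. At 3 µM AA132, HSPA5 was at 1921, 1969 and 1042 CPM in libraries 1 to 3. HERPUD1 (41.0, 42.4 and 28.4 CPM), DERL3 (19.2, 20.7 and 14.3), SEL1L (57.3, 57.2 and 46.5) and DERL2 (118.9, 130.6 and 108.8) were likewise lowest in library 3. At 1 µM, HSPA5 was at 1660, 1028 and 1093 CPM, and HERPUD1 (36.2, 29.9 and 29.2) and SEL1L (56.6, 44.7 and 44.4) were likewise highest in library 1, while DERL1 (35.4, 39.7 and 36.6) and EDEM1 (62.7, 63.2 and 69.1) were lowest there. Whether 1 µM library 1 and 3 µM library 3 were exchanged was not tested. At 10 µM, HSPA5 was at 1854, 2687 and 2836 CPM, and HERPUD1 (38.0, 52.9 and 52.7), DERL3 (20.7, 25.4 and 24.6) and SYVN1 (38.6, 45.4 and 45.1) were likewise lowest in library 1, while EDEM1 (67.2, 62.7 and 59.4) was highest there. In vehicle the order differed: HSPA5 was highest in library 1 (1025, 972.6 and 881.5 CPM), where SEL1L was lowest. These libraries were picked after their values were seen, and no test was made.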
